A study of Mus musculus with 24 samples.

Results

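The cytosolic ribosomal protein genes were followed in gastrocnemius muscle of 24 male C57BL/6N mice, a calf muscle of mostly fast fibres. Members were the genes whose symbol is that of a protein of the large or small ribosomal subunit (Rpl and Rps followed by a number, with Rplp0, Rplp1, Rplp2 and Rpsa), without the Rps6k kinases, and each was represented by its brightest probe with a signal over background of at least 2 in both channels. This gave 77 genes of the 10891 measured, namely 43 of the large subunit, 31 of the small subunit and 3 of the stalk. All 77 genes of the rule that had a probe on the array passed the limit on signal over background.

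The males, 3 months old at the start and caged in pairs (the labels do not give cages), spent 8 weeks on 1 of 3 high-fat diets of 35% lipid (w/w). Controls received the plain diet (cHF; n = 8). In cHF+F (n = 8) an n-3 LC-PUFA concentrate with 46% DHA and 14% EPA took the place of 15% of the dietary lipid, and in cHF+ROSI (n = 8) each kg of diet contained 10 mg of rosiglitazone. Rosiglitazone is a thiazolidinedione, an activator of the nuclear receptor PPARγ. All mice were fasted for 10 hours by day, re-fed Chow overnight and killed the next morning, so each group was measured on Chow rather than on its own diet. RNA of 1 mouse (Cy5) was hybridised on each array against a common pool of muscle RNA (Cy3), which also held RNA of mice on a higher dose of rosiglitazone, and values are log2 ratios of Cy5 over Cy3 after normalization within the array. Such ratios are relative to the other mRNAs of the same array, and a change shared by all mRNAs would not be seen. In whole muscle, a lower share of one cell type and less mRNA per cell cannot be told apart.

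The cytosolic ribosome translates all nuclear-encoded mRNAs. Its proteins are made in matched amounts from single-copy genes spread over the genome, and their mRNAs are among the most abundant in any cell. Most of these mRNAs begin with a C followed by an unbroken run of pyrimidines, the terminal oligopyrimidine tract, through which mTORC1 and the RNA-binding protein Larp1 set how fully they are translated after feeding. A change in their translation need not alter the mRNA level that an array reads.

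The annotated start sites show this feature in a part of the genes. Of the 77 genes, 57 had an entry among the RefSeq promoters (GRCm38.p6; 250 bases before and 50 after the annotated start; 49 genes had 1 start, 6 had 2 and 2 had 3). The following windows run 5′ to 3′ from 10 bases before the start to 20 bases from it. They are shown for all genes among the 5 smallest p-values of a comparison below that had an entry, and for Rps6, Rpl38 and Rpl13a as examples of other roles, and capitals mark a run of C and T that opens with C.
Rpl4: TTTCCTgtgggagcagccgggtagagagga
Rpl35a: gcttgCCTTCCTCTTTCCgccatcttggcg
Rpl39: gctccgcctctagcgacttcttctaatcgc
Rpl10: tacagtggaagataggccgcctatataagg
Rpl9: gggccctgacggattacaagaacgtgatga
Rpl18: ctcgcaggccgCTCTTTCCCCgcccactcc
Rpl14: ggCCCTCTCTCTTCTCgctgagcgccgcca
Rpsa: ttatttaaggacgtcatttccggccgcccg
Rps6: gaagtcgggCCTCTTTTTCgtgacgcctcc
Rpl38: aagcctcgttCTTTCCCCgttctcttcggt
Rpl13a: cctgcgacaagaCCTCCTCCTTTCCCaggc

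On GRCm38.p6 these windows lie at chr9:64173377-64173406 (Rpl4, plus strand), chr16:33056472-33056501 (Rpl35a, plus), chrX:37085203-37085232 (Rpl39, minus), chrX:74270806-74270835 (Rpl10, plus), chr5:65391412-65391441 (Rpl9, minus), chr7:45718061-45718090 (Rpl18, plus), chr9:120571507-120571536 (Rpl14, plus), chr9:120127756-120127785 (Rpsa, plus), chr4:86857348-86857377 (Rps6, minus), chr11:114668570-114668599 (Rpl38, plus) and chr7:45128726-45128755 (Rpl13a, minus). The Rpl35a window is 1 of its 3 annotated starts. The Rpl4 run of 13 bases begins upstream of the window and ends before the annotated start. A run of at least 6 pyrimidines that opened with C and reached within 5 bases of an annotated start was found in 29 of the 57 genes (50.9%), against 18.7% of the 27025 genes with a promoter entry. The letters CCGGAAG, on either strand, stood in the 300 bases of 24 of the 57 (42.1%) and in 9.93% of all genes. AAGATGGC was found in 5 (8.77%; all genes 3.19%) and TATAAA in 6 of 57 (all genes 15.7%). The reverse complement of CCGGAAG opens with pyrimidines and overlapped the run in 1 gene, while no member held CCGGAAG and AAGATGGC overlapping. Among the windows printed, those of Rpl39, Rpl10, Rpl9 and Rpsa have no such run at the annotated start.

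The arrays differed in one respect that touches every member. Probes of these genes are bright: 75 of the 77 were brighter than the median kept probe, and only 2.34% of all kept probes were brighter than the median member. No member spot was saturated. In cHF+ROSI mouse 3 and mouse 2 the bright probes of other genes lay below 0 after normalization, with median log2 ratios of -0.43 and -0.20 for the non-member probes nearest in brightness to each member. On each of the other arrays this median lay between -0.049 and -0.00016. Members are therefore given as normalized and after subtracting, on each array, the median of the non-member probes nearest in brightness to it (brightness-band centring). The share of Cy5 spots well above background ran from 30.4% to 61.3% on 23 arrays and was 91.1% in cHF+ROSI mouse 4.

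The median log2 ratio of the 77 genes in a mouse was -0.038 ± 0.043 (SD, n = 8) in cHF, 0.0058 ± 0.070 (n = 8) in cHF+F and -0.010 ± 0.16 (n = 8) in cHF+ROSI. It ran from -0.084 to 0.027 among cHF mice, with a median of -0.042. It ran from -0.066 to 0.14 in cHF+F, with a median of -0.0084, and from -0.31 to 0.19 in cHF+ROSI, with a median of 0.0049. The groups overlapped, and the cHF+ROSI group was the widest, with mice 3 and 2 the lowest of all 24 and mouse 7 the highest.

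After brightness-band centring the same medians ran from -0.090 to 0.036 in cHF, from -0.078 to 0.15 in cHF+F and from -0.029 to 0.21 in cHF+ROSI. The group means were then -0.035 ± 0.045, 0.017 ± 0.067 and 0.061 ± 0.074 (SD, n = 8 each). The low cHF+ROSI mice then stood at 0.070 (mouse 3) and 0.011 (mouse 2), inside the range of their group, while mouse 7 stayed highest. The groups still overlapped.

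**Figure D1:**
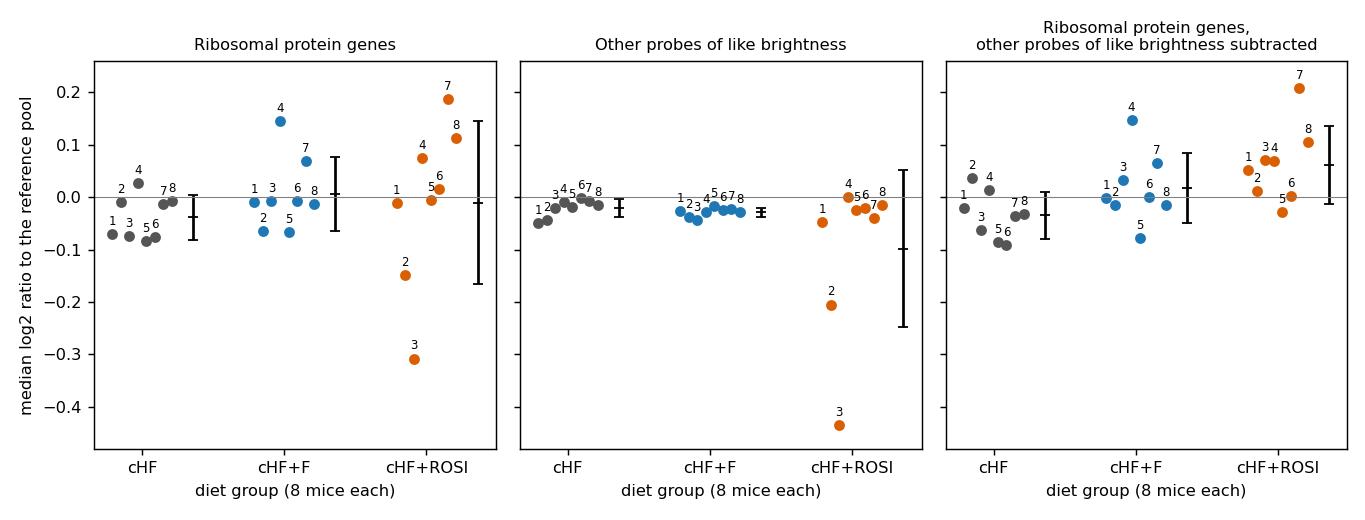
Median log2 ratio to the reference pool in each of 24 mice, by diet group, for the 77 ribosomal protein genes (left), for the non-member probes nearest to them in brightness (middle) and for the 77 genes after subtracting those probes (right). Numbers beside the points are replicate numbers and bars are mean ± SD of 8 mice. cHF+ROSI mice 3 and 2 are low in the left and middle panels and lie within their group in the right panel, where cHF+ROSI runs from -0.029 to 0.21 and cHF from -0.090 to 0.036.

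In single mice nearly the whole family lay on one side. In cHF+ROSI mouse 7, 76 of 77 members lay above their own cHF mean, against 47.0% of the 1171 non-member probes in the members' brightness range (between the 10th and the 90th percentile of the members). In cHF+F mouse 4 the figures were 73 of 77 and 45.6%, in cHF+ROSI mouse 4 they were 72 of 77 and 52.9%, and in cHF+ROSI mouse 8 they were 71 of 77 and 49.5%. Among cHF mice, mouse 4 had 65 of 77 above the group mean, against 47.3% of those non-member probes. In cHF mouse 5 the figures were 24 of 77 and 50.3%. In cHF+ROSI mouse 3 and mouse 2, 21 and 25 of 77 lay above the cHF mean. The non-member probes in the range were also low there, with 35.0% and 42.0% above it. After centring 63 and 53 members lay above their cHF mean in these mice. The 1171 probes crowd at the dim end of the range and are not matched to the members one by one.

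After centring both subunits lay on the same side in some mice and on opposite sides in others. In cHF+ROSI mouse 7 the median after centring was 0.23 for the 43 large-subunit genes and 0.20 for the 31 small-subunit genes. In cHF+F mouse 4 the values were 0.19 and 0.067. In cHF+F mouse 1 they had opposite signs, 0.079 for the large and -0.12 for the small subunit, and in cHF mouse 1 they were 0.021 and -0.11. Signs also differed in cHF mice 4 and 8, cHF+F mice 6 and 8 and cHF+ROSI mouse 6. The spread of a member between mice of 1 group had a median SD of 0.16 (0.089 to 0.31). It was 0.16 for the non-member probes in the members' brightness range and 0.15 for all kept probes. After centring it was 0.13 for the members and 0.15 for those non-members. Rpl28 then had the widest spread (0.25) and Rps3, a small-subunit protein at the mRNA entry site, the narrowest (0.075).

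To find which members differed with the n-3 LC-PUFA diet, cHF+F was compared with cHF. No member passed limma's adjusted p under 0.05 (0 of 77), as was the case for all 15958 kept probes (0% called). The smallest adjusted p of a member was 0.489. Of the members, 59 of 77 (76.6%) had a higher mean in cHF+F, beside 50.3% of all kept probes and 586 of the 1171 non-member probes in the brightness range. Centring arrays on their median in place of loess turned this direction, with 21 of 77 higher and a median log2 change of -0.058. Their median log2 change was 0.028, and the same median was 0.00049 over all probes. Leaving out 1 array gave medians from 0.0084 to 0.050, and 43 members were higher without cHF+F mouse 4. At an unadjusted p under 0.05, 1 member was higher (1.30%) and 0 were lower, where 2.84% of all probes were higher and 4.03% lower, and 4.78% and 4.87% in the brightness range. The share of members at that limit was below the background.

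That member was Rpl10, a large-subunit protein that joins the ribosome late and reaches towards the peptidyl transferase centre. Its log2 ratio ran from -0.18 to -0.028 in cHF, with a median of -0.13 (7 mice, 1 flagged spot), from -0.057 to 0.18 in cHF+F, with a median of 0.061, and from -0.28 to 0.22 in cHF+ROSI, with a median of -0.069. All 8 cHF+F mice lay above the cHF mean, and only the lowest of them fell into the cHF range. The log2 change was 0.19 ± 0.062 (SE), a fold of 1.14, with an unadjusted p of 0.00608 and an adjusted p of 0.489 in limma. It was higher on 7 of the 7 slides that held both values and stayed between 0.17 and 0.20 when any 1 array was left out.

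The scanner files place this brightest Rpl10 probe on chromosome 13 (62394783 to 62394842, mm8), while the gene is X-linked, and it carries the symbol through the file only. For the other 76 members the probe lay on the chromosome of its gene. A second kept Rpl10 probe, named by its RefSeq accession, gave 0.11 in the same comparison. Signal of a copy on another chromosome and of the X-linked gene cannot be told apart on the first probe.

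Next in order of p were Rpl35a, a gene mutated in some patients with Diamond-Blackfan anaemia, with 0.10 ± 0.051 (SE), Rpl18 with 0.12 ± 0.061, Rpl9 with 0.15 ± 0.074 and Rpl39, a small protein of the exit tunnel wall, with 0.11 ± 0.059. Their adjusted p in limma lay between 0.728 and 0.779. Rpl18 ran from -0.46 to -0.029 in cHF, with a median of -0.24, and from -0.23 to -0.014 in cHF+F, with a median of -0.12. Rpl9 ran from -0.37 to -0.0049 (median -0.18) in cHF and from -0.099 to 0.080 (median -0.058) in cHF+F. For Rpl35a, Rpl18 and Rpl9 every cHF+F mouse lay above the cHF mean, and in each case the groups overlapped.

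The largest positive changes were those of Rpl10, Rpl9 and Rps15 (0.14 ± 0.11), and the largest negative ones those of Rps13 (-0.064 ± 0.078), Rps7 (-0.057 ± 0.072) and Rpl21 (-0.053 ± 0.066; SE). Rps15 read 0.47 in cHF+F mouse 4, where the group median was 0.063. The unadjusted 95% confidence intervals of the 77 changes lay between -0.29 and 0.40 on the log2 scale, folds of 0.817 to 1.32.

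Rosiglitazone was examined in the same way by comparing cHF+ROSI with cHF. Again 0 of 77 members and 0% of all kept probes passed the adjusted limit, and the smallest adjusted p of a member was 0.980. At an unadjusted p under 0.05, 6 members were higher (7.79%) and 0 lower. In that comparison 1.71% of all probes were higher and 3% lower, and 1.54% and 6.58% in the members' brightness range. A higher mean was found for 46 of 77 members (59.7%), beside 45.6% of all probes and 36.8% of the probes in the brightness range. The median log2 change was 0.020 for the members (-0.019 with array weights and -0.011 without cHF+ROSI mouse 7), -0.0082 for all probes and -0.030 for the probes in that range. Most probes of the range lie at its dim end. Non-member probes had a median of 0.0064 at a log2 brightness of 12 to 13 (661 probes) and of -0.095 at 14 to 15 (177 probes).

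The members and the non-member probes in the range differed more once brightness was taken into account. After brightness-band centring 75 of 77 members (97.4%) had a higher mean in cHF+ROSI, and their median log2 change was 0.095. The share was 51.0% for the non-member probes in the brightness range. The centring used the non-member probes themselves, so their share near even follows from the method. It is no independent background for the members. Unadjusted p under 0.05 was then reached by 18 members with a higher mean (23.4%) and 1 with a lower mean, Rpl21. The background at the same setting was 2.07% of all probes and 3.25% of the non-member probes in the range with a higher mean. Even so 0 members passed the adjusted limit, with a smallest adjusted p of 0.999. Without cHF+ROSI mice 2 and 3 and with no such centring, a choice made after seeing the data, 66 of 77 members had a higher mean, the median was 0.096 and 20 were higher and 1 lower at an unadjusted p under 0.05. At that setting 1.64% of all probes and 3.07% of the non-member probes in the range were higher at the same limit. Genes read on the same arrays are not independent of each other.

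**Figure D2:**
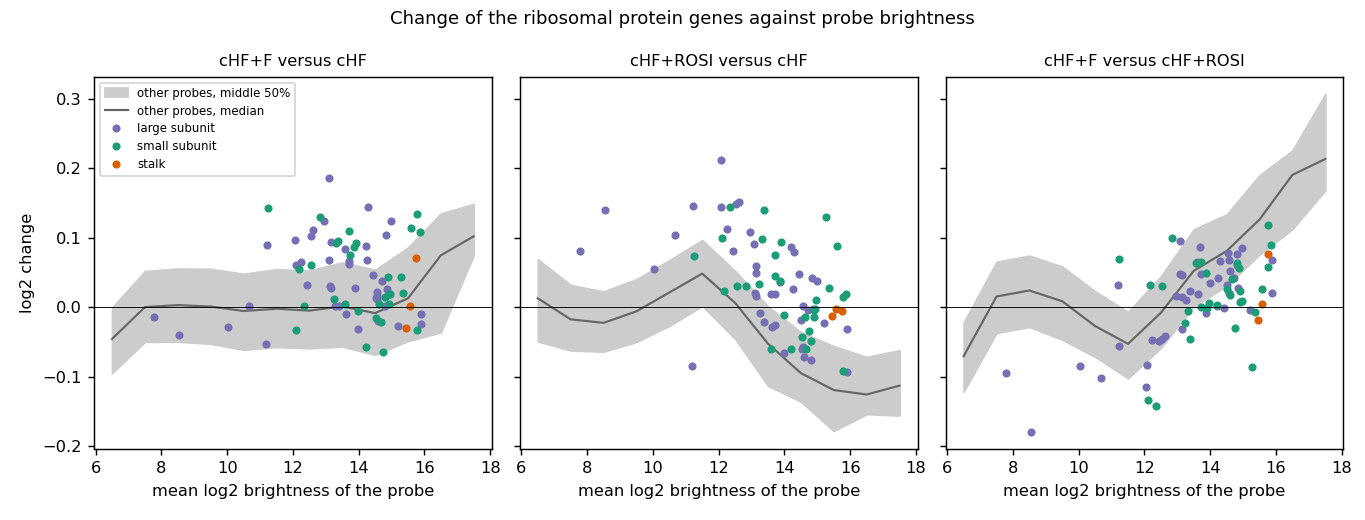
Log2 change of each ribosomal protein gene (points, coloured by subunit) against the mean log2 brightness of its probe, in the 3 comparisons. The line and the band are the median and the middle 50% of the non-member probes in steps of 1 on the brightness axis. In cHF+ROSI versus cHF the bright non-member probes lie below 0 and most members lie above the line. The median of the members is 0.020. It is -0.030 for the non-member probes in the members' brightness range, most of which lie at its dim end.

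Rpl4, whose long loop lines the tunnel through which the new peptide leaves, had the smallest p. Its log2 ratio ran from -0.30 to -0.029 in cHF, with a median of -0.19, from -0.18 to 0.043 in cHF+F, with a median of -0.093, and from -0.13 to 0.25 in cHF+ROSI, with a median of -0.0099. All 8 cHF+ROSI mice lay above the cHF mean, 4 of them above every cHF mouse and 4 within the cHF range. The change was 0.21 ± 0.062 (SE), a fold of 1.16, with an unadjusted p of 0.00210 and an adjusted p of 0.980 in limma.

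Rpl35a ran from -0.080 to 0.10 in cHF, with a median of 0.030, from 0.049 to 0.25 in cHF+F, with a median of 0.12, and from -0.011 to 0.39 in cHF+ROSI, with a median of 0.13. The change with rosiglitazone was 0.15 ± 0.051 (SE), with an unadjusted p of 0.00674. Rpl30 ran from -0.17 to 0.14 in cHF (median 0.012, 7 mice) and from 0.020 to 0.24 in cHF+ROSI (median 0.16), a change of 0.14 ± 0.053 with an unadjusted p of 0.0118. Both genes had higher values in most cHF+ROSI mice, and the groups overlapped.

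Rps27a, which is translated as a fusion with ubiquitin, ran from -0.097 to 0.11 in cHF, with a median of 0.023, from -0.080 to 0.28 in cHF+F, with a median of 0.13, and from -0.026 to 0.28 in cHF+ROSI, with a median of 0.20. It was the one named member that was higher in cHF+ROSI on all 8 slides and reached this limit, with a change of 0.14 ± 0.053 (SE) and an unadjusted p of 0.0145. Rpl39 gave 0.15 ± 0.059 and Rpl10a 0.15 ± 0.068, with an adjusted p of 0.996 in limma. Rpl30 and Rps27a had the same adjusted p.

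Left-out arrays separated these 6 genes. The unadjusted p of Rpl4, Rpl35a, Rpl30, Rps27a and Rpl39 stayed under 0.05 in all 24 fits that left out 1 array, the highest being 0.0449 for Rpl39. Rpl10a stayed under it in 18 of 24, and its p was 0.118 without cHF+ROSI mouse 3. The fits that left out a cHF+F mouse could not move these changes, and the 6 genes were picked for their p-value with all arrays. Non-member probes of the brightness of Rpl10a had a change of 0.065, and its own change after centring was 0.080. For Rps27a the surrounding probes had -0.057 and the centred change was 0.20, and for Rpl4, Rpl35a and Rpl39 centring moved the change by at most 0.011.

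**Figure D3:**
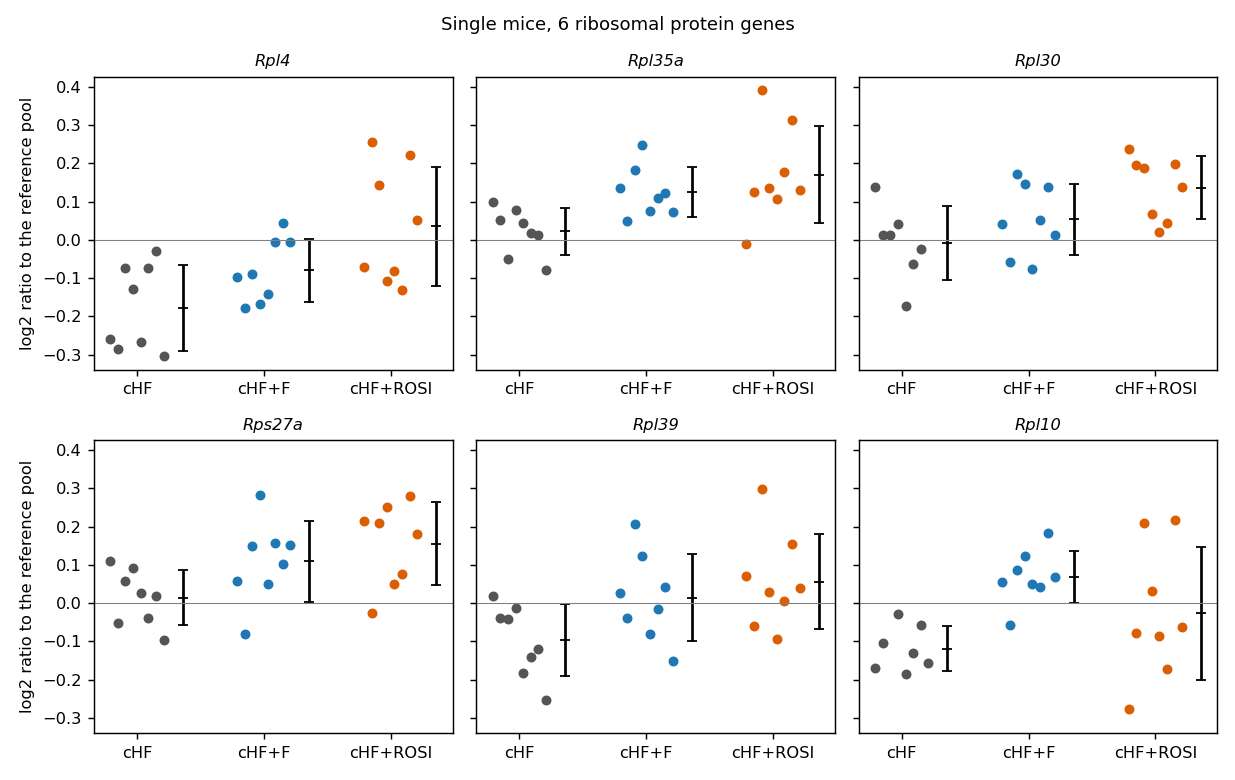
Log2 ratio to the reference pool of 6 ribosomal protein genes in single mice of the 3 groups, with mean ± SD at the right of each group. Rpl4, Rpl35a, Rpl30, Rps27a and Rpl39 lie higher in cHF+ROSI than in cHF by 0.14 to 0.21 on average and Rpl10 lies higher in cHF+F by 0.19, and the groups overlap in every panel.

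At the other end stood Rpl7a (-0.093 ± 0.11), Rps2 (-0.092 ± 0.10) and Rpl21 (-0.085 ± 0.066; SE), with adjusted p of 0.996 in limma. Rpl7a and Rps2, a protein at the mRNA entry channel, had their lowest value in cHF+ROSI mouse 3, at -0.96 and -0.82, while the group medians were -0.082 and -0.097. After centring their changes were 0.047 and 0.048, so the direction of both depended on the correction for brightness. Rpl21 kept its direction, with -0.15. The unadjusted 95% intervals over all 77 members ran from -0.33 to 0.37, folds of 0.798 to 1.29.

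**Figure D4:**
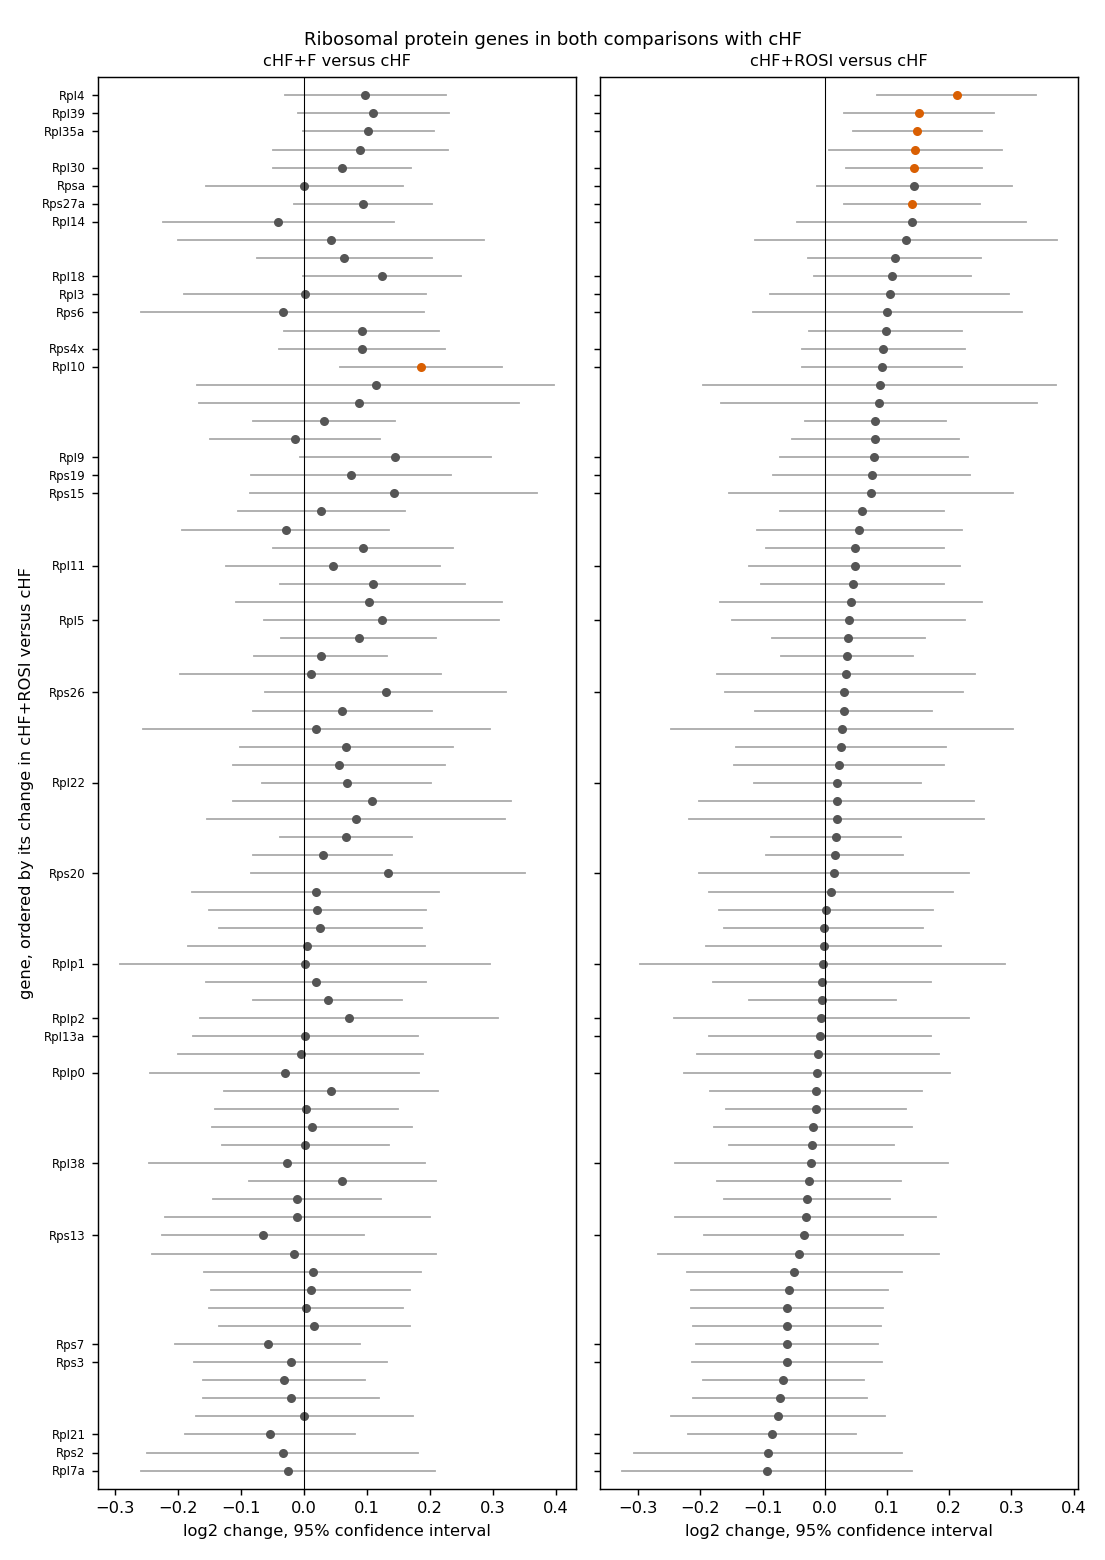
Log2 change and unadjusted 95% confidence interval of all 77 ribosomal protein genes in cHF+F versus cHF (left) and cHF+ROSI versus cHF (right), ordered by the right panel, with names at the genes chosen for their role, p-value or size of change. Orange points have an unadjusted p under 0.05, which are Rpl10 on the left and 6 genes on the right, and no gene passed the adjusted limit. Both panels share the cHF arrays.

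Both treatments were compared with each other in cHF+F versus cHF+ROSI. No member passed at an adjusted p under 0.05, as for all probes (0% called), or at an unadjusted p under 0.05. Among all probes, 3.95% were higher and 2.7% lower at the unadjusted limit, and 6.4% and 2.31% in the brightness range. The median log2 change of the members was 0.021 with 52 of 77 higher in cHF+F, while 63.8% of the non-member probes in the range were higher. After brightness-band centring 9 of 77 were higher and the median was -0.060, so the direction between the treatments turned with this setting.

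Rpl14 had the smallest p in this comparison. It ran from -0.36 to 0.22 in cHF+F, with a median of 0.011, and from 0.0088 to 0.29 in cHF+ROSI, with a median of 0.13. The change was -0.18 ± 0.089 (SE, unadjusted p = 0.0552, adjusted p = 0.757 in limma). Rpsa, a small-subunit protein also known as the laminin receptor, was next with -0.14 ± 0.076 (adjusted p = 0.772 in limma, and 0.199 with slide as a block), followed by Rpl4 with -0.11 ± 0.062, Rpl30 and Rpl10. The largest positive values were those of Rps20 (0.12 ± 0.11), Rps26 (0.10 ± 0.093) and Rpl10 (0.095 ± 0.060), and Rps6 was the third lowest with -0.13 ± 0.11. The unadjusted intervals of the 77 members ran from -0.36 to 0.34, folds of 0.777 to 1.26.

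By role, the stalk proteins Rplp0, Rplp1 and Rplp2, which recruit the elongation factors, did not pass the test. Rplp0 gave -0.030 ± 0.10 in cHF+F and -0.012 ± 0.10 in cHF+ROSI, Rplp1 by 0.0017 ± 0.14 and -0.0031 ± 0.14, and Rplp2 by 0.072 ± 0.12 and -0.0054 ± 0.12 (SE, against cHF). After brightness-band centring all 3 were higher in cHF+ROSI than in cHF, with 0.10 ± 0.067 for Rplp0, 0.13 ± 0.10 for Rplp1 and 0.17 ± 0.091 for Rplp2. Rplp0 is often used as a reference gene in PCR. In cHF+ROSI mouse 3 it read -0.84, far below the group median of -0.0025, and its 3 probes differed in sign in each comparison.

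Large-subunit genes with known further roles did not pass the test either. Rpl5 and Rpl11, which bind Mdm2 together with the smallest ribosomal RNA when ribosome assembly is disturbed, gave 0.12 ± 0.091 and 0.047 ± 0.083 in cHF+F and by 0.038 ± 0.091 and 0.048 ± 0.083 in cHF+ROSI (SE). Rpl5 was higher in cHF+F on all 8 slides, with an unadjusted p of 0.183, or 0.0479 with slide as a block (adjusted p = 0.406 in limma). Rpl3, at the peptidyl transferase centre, gave 0.0022 ± 0.093 and 0.10 ± 0.093, Rpl13a 0.0025 ± 0.087 and -0.0077 ± 0.087, and Rpl38, needed for normal axial patterning in the mouse, -0.026 ± 0.11 and -0.022 ± 0.11. Rpl22 gave 0.068 ± 0.065 and 0.020 ± 0.065. Of the 43 large-subunit genes 33 were higher in cHF+F and 27 in cHF+ROSI, with medians of 0.030 and 0.026. After brightness-band centring 42 of 43 were higher in cHF+ROSI, with a median of 0.095.

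On the small subunit, Rps6, the substrate of the S6 kinases downstream of mTORC1, gave -0.033 ± 0.11 in cHF+F (7 mice) and 0.10 ± 0.11 in cHF+ROSI (SE). Rps19, the gene most often mutated in Diamond-Blackfan anaemia, gave 0.076 ± 0.077 and 0.075 ± 0.077, the X-linked Rps4x 0.093 ± 0.064 and 0.094 ± 0.064, and Rps3 -0.021 ± 0.074 and -0.061 ± 0.074. Rpsa gave 0.0013 ± 0.076 and 0.14 ± 0.076, the second with an unadjusted p of 0.0690, or 0.00511 with slide as a block (adjusted p = 0.347 in limma), and was higher in cHF+ROSI on all 8 slides. Of the 31 small-subunit genes 24 were higher in cHF+F and 19 in cHF+ROSI, with medians of 0.020 and 0.023. After centring 30 of 31 were higher in cHF+ROSI, with a median of 0.087.

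For 30 members more than 1 probe was kept. All probes of a gene had the same sign for 20 of these in cHF+F versus cHF, 16 in cHF+ROSI versus cHF and 15 in cHF+F versus cHF+ROSI. Among the genes whose probes differed in sign were Rpl22, Rpl7a, Rplp0, Rps2, Rps24 and Rps4x in the first comparison and Rpl7a, Rplp0, Rps24 and Rps3 in the second. For Rps4x the brightest probe gave 0.093 in cHF+F and the other -0.12, and for Rps24 the values were 0.087 and -0.17. Many ribosomal protein genes have processed copies elsewhere in the genome, and signal of such a copy cannot be told from that of the gene.

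The slides offered a comparison within a batch, since every slide carried all 3 diets, each at its own fixed place, so that place and diet cannot be told apart. The median of the members was higher in cHF+F than in cHF on 6 of 8 slides (differences from -0.055 to 0.12) and in cHF+ROSI on 6 of 8 (-0.23 to 0.20). After centring both were higher on 7 of 8 (-0.050 to 0.13 and -0.025 to 0.24), and cHF+F exceeded cHF+ROSI on 1 of 8. With slide as a block, 7 members in place of 1 had an unadjusted p under 0.05 in cHF+F versus cHF, all higher and with a smallest adjusted p of 0.173. The background also rose under the block, to 5.67% of all probes and 7.94% of the non-member probes in the brightness range with a higher mean. In cHF+ROSI versus cHF 8 members in place of 6 reached the limit with the block, all higher and with a smallest adjusted p of 0.287, beside 4% of all probes and 3.42% of those in the range.

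**Figure D5:**
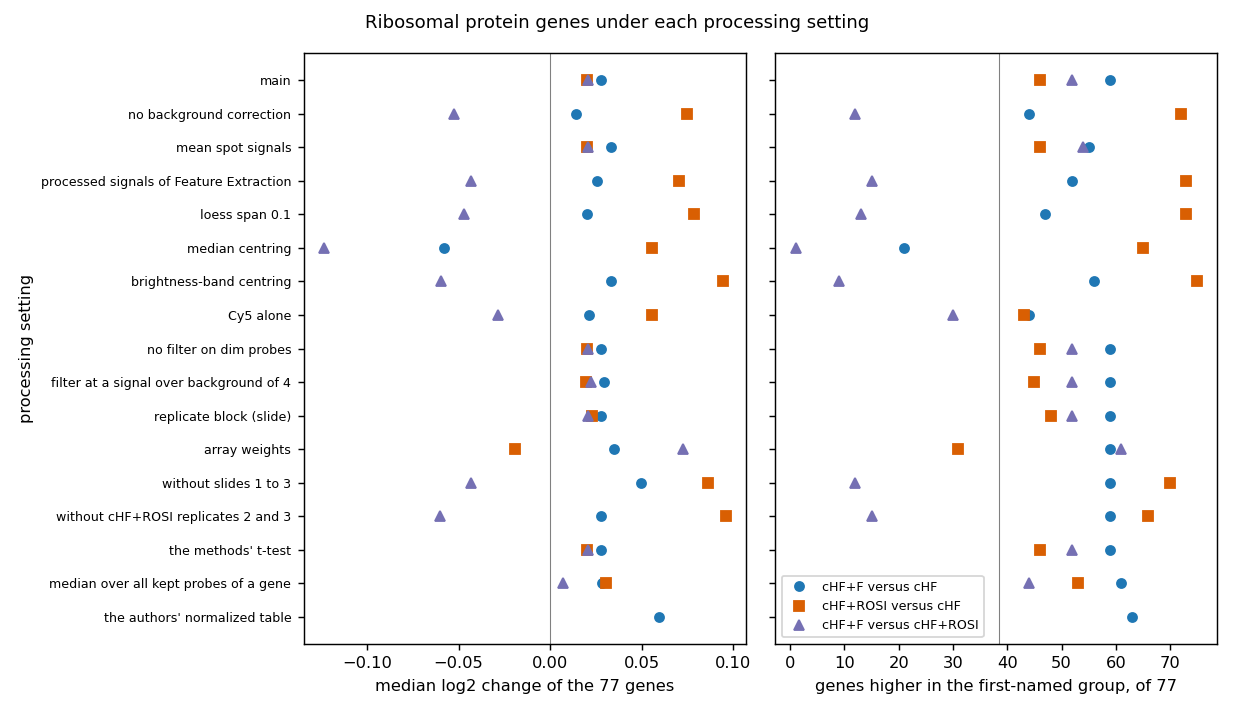
Median log2 change of the 77 ribosomal protein genes (left) and the number of them with a higher mean in the first-named group (right) under each processing setting, for the 3 comparisons. cHF+ROSI versus cHF has a negative median with array weights and runs up to 0.096 without cHF+ROSI replicates 2 and 3. cHF+F versus cHF+ROSI lies on either side of 0.

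Genes that work with the ribosome were read from lists written with the members. No gene of any list passed the adjusted limit in any comparison. Counts at the unadjusted limit stand beside the shares of all probes given above for each comparison. Of 8 kept paralogues and fusions of 11 listed (not kept: Rpl39l, Rpl10l and Rps4l), 7 were higher in cHF+F with a median of 0.062, and 4 in cHF+ROSI with a median of 0.0050. Rpl22l1, the paralogue of Rpl22, was the one with an unadjusted p under 0.05, with 0.20 ± 0.079 in cHF+F (SE, adjusted p = 0.616 in limma).

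The list of translation factors and a few other mRNAs held 37 genes. Of the 28 with a promoter entry, 7 had a pyrimidine run by the rule above, beside 18.7% of all genes. All 37 were kept. Their medians were 0.0059 in cHF+F and -0.0026 in cHF+ROSI, with 0 higher and 1 lower, and 2 higher and 0 lower, at an unadjusted p under 0.05. Eif4a1, the helicase that unwinds mRNA leaders, gave 0.16 ± 0.051 in cHF+ROSI versus cHF (SE, unadjusted p = 0.00380) and -0.22 ± 0.051 in cHF+F versus cHF+ROSI (unadjusted p = 0.000246, adjusted p = 0.433 in limma). Eif3m gave 0.17 ± 0.077 in cHF+ROSI, Eif3b gave -0.14 ± 0.064 in cHF+F, and Eef1a1, which brings aminoacyl-tRNA to the ribosome, gave -0.18 ± 0.064 in cHF+F versus cHF+ROSI.

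Ribosome biogenesis, with 40 of 43 genes kept, had medians of -0.016 in cHF+F and 0.0082 in cHF+ROSI. A pair of subunits of RNA polymerase I, which makes the ribosomal RNA precursor, stood on opposite sides in cHF+F: Polr1a gave -0.20 ± 0.087 and Polr1b 0.21 ± 0.092 (SE, unadjusted p of 0.0279 and 0.0312). Wdr12 gave -0.13 ± 0.062 in cHF+F and Nop10 0.16 ± 0.075 in cHF+ROSI. In cHF+F versus cHF+ROSI 2 genes were higher (Utp6 and Wdr43) and 3 lower (Ebna1bp2, Npm1 and Sbds) at the unadjusted limit. Among all probes 3.95% were higher and 2.7% lower.

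Of the mTORC1 and S6 kinase list 23 of 24 genes were kept, with medians of 0.039 in cHF+F and -5.9e-05 in cHF+ROSI. In cHF+F versus cHF+ROSI 3 were higher and 0 lower at an unadjusted p under 0.05, where 3.95% of all probes were higher. These were Ddit4, an inhibitor of mTORC1, by 0.86 ± 0.27, Mtor by 0.17 ± 0.055 and Rps6kb1, the S6 kinase, by 0.16 ± 0.060 (adjusted p in limma of 0.574, 0.586 and 0.636). Against cHF, Eif4ebp2 gave 0.21 ± 0.10 in cHF+F, and in cHF+ROSI Mtor gave -0.13 ± 0.055 and Rheb, its activator, 0.11 ± 0.055 (SE).

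The 78 mitochondrial ribosomal proteins, which form a separate ribosome, had medians of 0.013 in cHF+F and 0.0086 in cHF+ROSI, and after brightness-band centring 41 of 78 were higher in cHF+ROSI with a median of 0.0042, beside 75 of 77 and 0.095 for the cytosolic genes. The difference between these lists was not tested. Mrpl54 gave 0.20 ± 0.054 in cHF+F and 0.15 ± 0.054 in cHF+ROSI (adjusted p in limma of 0.385 and 0.996). At the unadjusted limit stood also Mrps18b (0.17 ± 0.077) and Mrps30 (-0.15 ± 0.065) in cHF+F, and Mrpl51 in cHF+F versus cHF+ROSI.

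Marker lists of other cell types are given as counts and medians, with no gene past the adjusted limit, and their part in the values of the ribosomal genes was not tested. All 11 markers of muscle fibres, the labelled tissue, were kept, and 10 of 11 were lower in cHF+ROSI with a median of -0.22, which was -0.074 after centring. All 6 endothelial markers were lower in both treatments (medians of -0.16 and -0.16), 3 of them at an unadjusted p under 0.05 in each. At that limit 4.03% of all probes were lower in cHF+F and 3% in cHF+ROSI. The mean log2 ratio of the endothelial list ran from -0.16 to 0.30 in cHF, from -0.35 to -0.012 in cHF+F and from -0.19 to 0.068 in cHF+ROSI. Of 7 liver genes 5 were kept, all higher in both treatments (medians of 0.40 and 0.69), and the list mean ran from -2.3 to -0.52 in cHF, from -1.6 to 0.72 in cHF+F and from -2.3 to 1.4 in cHF+ROSI. The 3 kept blood genes of 6 were lower in cHF+ROSI (median -0.46), where the list mean ran from -0.68 to -0.039, against -0.44 to 0.96 in cHF. All 6 kept macrophage markers of 7 were lower in both treatments (medians of -0.14 and -0.066), and fibroblast, adipocyte and lymphocyte lists (6 of 6, 7 of 7 and 3 of 7 kept) had medians of 0.033, -0.092 and -0.0024 in cHF+F and of -0.061, 0.010 and 0.054 in cHF+ROSI.

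The common pool was the same RNA on every array. In Cy3 alone the median log2 change of the 77 genes was -0.0037 in cHF+F versus cHF, -0.022 in cHF+ROSI versus cHF and 0.026 in cHF+F versus cHF+ROSI, with 1, 2 and 0 members at an unadjusted p under 0.05 and 0 at the adjusted limit.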

How the data were processed

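RNA of 24 muscles was measured on two-colour Agilent whole mouse genome arrays. Per the file headers, the deposited scanner files hold spot and background intensity values per channel, quantified by Feature Extraction version 10.5.1.1 (the submitters' processing notes name 10.5.5.1). The authors also deposited a table of log2 values, Cy5 normalized against Cy3 after removal of dim spots, whose cHF and cHF+F columns served as an alternative; 8 columns of the combined diet match no sample here and were not used. The slopes of these log2 values on those of the scanner files ran from 0.975 to 1.26.

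Median signals were corrected by normexp (offset 50) and normalized within arrays by loess (span 0.3), flagged spots were missing, and replicate spots were averaged. Probes needed 4 unflagged arrays per group and a mean signal over background of at least 2 in both channels, which left 15958 of 41174 probes. Symbols came from the accession in a RefSeq gene table (12577 probes) or from the file (2544), and 837 had none. Member probes numbered 131, of which 116 were kept. Groups came from the labels, which do not pair mice.

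Limma version 3.58.1 in R version 4.3.3 (data.table version 1.17.8) fitted all 3 groups in 1 two-sided model without a block, since the methods name none, with Benjamini-Hochberg adjustment over all kept probes and a limit of 0.05. The fit was tested on simulated data. With 8 mice per group the number of arrays limits the precision. In brightness-band centring the median of the non-member probes nearest in brightness was subtracted on each array. Promoters and motifs are from RefSeq tables on GRCm38.p6, whereas probe coordinates are those of the files (mm8).

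Alternatives were other background corrections, spot summaries, normalizations, filters, probe choices, slide as a block, array weights, omission of slides or arrays and the methods' t-test. Same-slide arrays had residuals correlated at -0.11 to 0.64 (24 pairs, median 0.25, 18 over 0.1), and arrays of different slides had a median of -0.054. Named genes were members chosen for their role and, per comparison, the 5 smallest p-values and the 3 largest changes each way, with list genes at an unadjusted p under 0.05, up to 5 per list. The members, lists and tests were chosen with earlier results of these data known. Some single-gene results are not reported here.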

Additional observations from a re-analysis of the deposited data

Results flagged for a closer look

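The highest or lowest mouse of a group of 8 was set against the rest by its gap to the nearest neighbour, as a share of the range, with Dixon's critical value at 95%. Of 102 groups of values examined (31 named genes and 3 medians over the family or its surrounding probes, in 3 diets), 12 held such a mouse. A rate by chance of about 1 in 20 holds only for independent groups chosen without regard to their values. Some of these genes were named for their change or p-value, and all were read on the same arrays. The count therefore cannot be set against that rate.

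Of the 12, 7 belonged to cHF+ROSI mouse 3. Its log2 ratios were -0.96 for Rpl7a, -0.84 for Rplp0, -0.82 for Rps2, -0.77 for Rps20, -0.67 for Rps3 and -0.60 for Rpl9, and the non-member probes of the members' brightness had a median of -0.43 on that array. The other gene values that stood apart in cHF+ROSI were those of mouse 1, -0.44 for Rpl18 and -0.60 for Rps26. In cHF+F they were -0.14 for Rpl13a and -0.27 for Rps6 in mouse 1 and 0.47 for Rps15 in mouse 4.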

How the results depend on the processing

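No member passed an adjusted p under 0.05 under any alternative. The smallest adjusted p of a member was 0.172 in limma (array weights) and 0.114 by the methods' t-test, both in cHF+F versus cHF. The cause of the differences below was not tested.

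In cHF+F versus cHF, 1 member had an unadjusted p under 0.05 as reported. The count was 0 with median centring and with the median over probes, 2 without background correction, with mean signals and with no filter on dim probes, 3 with processed signals and without cHF+ROSI replicates 2 and 3, 4 with a loess span of 0.1, brightness-band centring and without slides 1 to 3, 5 by the methods' t-test, and 6 with array weights and in the authors' table. Of the 59 members with a higher mean, the number fell to 21 with median centring. It was 37 in Cy3 alone, which read the common pool and so does not bear on the diets. Leaving out 1 array gave counts of 1 to 4 at the unadjusted limit, medians of 0.0084 to 0.050 and 43 (without cHF+F replicate 4) to 61 members higher.

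In cHF+ROSI versus cHF, the 6 members became 0 with median centring, 10 without background correction and 11 with a loess span of 0.1. They became 17 without slides 1 to 3, 19 with brightness-band centring and 21 without cHF+ROSI replicates 2 and 3. In Cy3 alone, which read the common pool and so does not bear on the diets, the count was 2. Against 46 as reported, 72 were higher without background correction, 73 with processed signals and with a loess span of 0.1, 75 with brightness-band centring and 70 without slides 1 to 3. Leaving out 1 array gave 5 to 10 at the limit, medians of -0.011 (without replicate 7) to 0.065 (without replicate 3) and 33 to 68 higher.

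In cHF+F versus cHF+ROSI, the count of 0 became 1 with no filter, array weights and the t-test, 3 without slides 1 to 3, 4 without background correction, with a loess span of 0.1 and with brightness-band centring, 5 with processed signals and 7 without cHF+ROSI replicates 2 and 3. Of 77, 52 were higher as reported, 12 without background correction and without slides 1 to 3, 15 with processed signals and without replicates 2 and 3, 13 with a loess span of 0.1, 1 with median centring (median -0.12), 9 with brightness-band centring and 30 in Cy5 alone. Leaving out 1 array gave 0 to 2 at the limit, medians of -0.026 (without cHF+ROSI replicate 3) to 0.051 (without replicate 7) and 23 to 60 higher.

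With slide as a replicate block the counts at the unadjusted limit were 7, 8 and 3 in the order of the paragraphs above. Slide equals the replicate number. Residuals of same-slide arrays had a median correlation of 0.25, against -0.054 for other slides. The main fit had no slide term, so its p-values leave this correlation out. The labels do not pair the mice, and the block stayed an alternative. Values of named genes stayed within their replicate spread in 2713 recomputations and moved by more in 71. These include fits that could not move a value, such as those without an array of the third group, so the count does not measure stability. In cHF+ROSI versus cHF, 8 of 23 named genes changed sign with brightness-band centring, with a loess span of 0.1 and without background correction. With mean spot signals 0 of 23 did.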
